A study of Mus musculus with 12 samples.

Results

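The genes described here are the main tumour suppressors of pancreatic ductal adenocarcinoma (PDAC) together with the best known transcriptional targets of p53: Trp53, Cdkn2a, Cdkn2b, Smad4, Cdkn1a, Mdm2, Ccng1, Zmat3, Phlda3 and Eda2r. They were chosen by name, with no measured value in the rule but with earlier results of these data known. They are 10 of the 20432 genes in the deposited table. The libraries came from 6 mouse PDAC cell lines, numbered 52205, 52419, 52424, 53105, 53369 and 53371, each sequenced as the parental culture and again after Cre. The parental cultures are labelled wildtype, and the paired cultures are labelled as JAK1 knockouts. In the Cre cultures the parental line had been infected with pBabe-Cre-puro retrovirus, a vector for Cre recombinase with a marker of puromycin resistance, and selected in rising puromycin at 2, 4 and 7 µg/ml. All cultures grew in the same serum-containing medium. The labels used here name neither the alleles with which the tumours were made nor a floxed Jak1 allele, and no culture infected with an empty vector was analysed here. Infection, drug selection and time in culture are therefore part of each difference between Cre and parental cultures and cannot be told apart from the loss of JAK1. Each line had 1 library per condition, so p-values for the Cre effect measure how alike the 6 lines were.

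Trp53 encodes p53, a transcription factor that is stabilised by DNA damage and oncogene signalling and that switches on genes for cell cycle arrest, DNA repair and death. Mdm2 is both a p53 target and the ligase that marks p53 for destruction, so the level of Mdm2 transcript is a common readout of p53 activity. Cdkn2a is an unusual locus that makes unrelated proteins from alternative first exons: p16Ink4a, which blocks CDK4 and CDK6 and so keeps the retinoblastoma protein active, and p19Arf, which blocks MDM2 and so stabilises p53. Cdkn2b lies next to it and encodes p15Ink4b, a CDK4 and CDK6 inhibitor that TGF-β can induce. Smad4 is the shared partner of the receptor-activated SMADs that carry the TGF-β signal to the nucleus. In human and mouse PDAC the p53, CDKN2A and SMAD4 arms are those most often lost.

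The sequences that tie p53 targets to p53 are its binding sites, and in the promoter windows used here full sites with no spacer were rare. RefSeq promoters of GRCm38.p6, running from 250 bases before to 50 bases after an annotated start, were found for 8 of the 10 genes as 10 windows, since Cdkn2a and Cdkn1a each have more than 1 start. The full p53 site, made of a pair of adjacent 10-base half-sites and allowed at most 1 mismatch over the whole site, was present in 29 of 32851 windows of the same length (0.0883%). It was present in 2 of the 10 windows, the upstream start of Cdkn1a (site at chr17:29090928-29090947, plus strand, first base at position -51 from the start) and Ccng1 (site at chr11:40755462-40755481, first base at position -195 from the start, gene on the minus strand). The 250 bases before both starts are shown 5′ to 3′ on the gene's strand with that site in capitals, because Cdkn1a and Ccng1 both hold such a site and are set side by side below. The Cdkn1a stretch is chr17:29090729-29090978 and the Ccng1 stretch is chr11:40755287-40755536. Beside them stand the sites of Mthfd1, a folate enzyme, and Gtse1, a protein of dividing cells that restrains p53, both picked after their values were seen.
Cdkn1a: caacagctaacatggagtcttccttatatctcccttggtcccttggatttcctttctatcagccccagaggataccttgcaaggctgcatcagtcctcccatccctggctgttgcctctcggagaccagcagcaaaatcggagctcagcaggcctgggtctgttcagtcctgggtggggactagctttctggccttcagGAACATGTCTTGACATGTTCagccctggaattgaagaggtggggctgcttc
Ccng1: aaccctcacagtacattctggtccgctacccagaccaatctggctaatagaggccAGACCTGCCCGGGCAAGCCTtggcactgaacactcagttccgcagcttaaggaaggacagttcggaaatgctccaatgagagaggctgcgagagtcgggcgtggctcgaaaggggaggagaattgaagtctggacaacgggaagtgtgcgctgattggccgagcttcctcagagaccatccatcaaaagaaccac
Mthfd1 site: AAACTTGCTCAGACAGGCCC
Gtse1 site: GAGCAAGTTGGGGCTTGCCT

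Other motifs were scanned on both strands of the same 10 windows. A single p53 half-site, which is also counted where it is part of a full site, lay in 4 of them (8.36% of all windows), those of Trp53, Mdm2, Ccng1 and the upstream start of Cdkn1a. The GC box GGGCGG lay in 7 (35.7% of all windows) and the TATA box TATAAA in 2 (13.6%). The STAT site TTCNNNGAA and the SMAD palindrome GTCTAGAC were in 0 of the 10, against 8.30% and 0.213% of all windows. A match is only a match of letters in these windows, and it says nothing about binding. Full sites with bases between the half-sites, or outside these windows, could not be found, and Smad4 and Zmat3 had no window. A gene with no match here may therefore still hold a p53 site.

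The libraries held 11477867 to 18044142 reads assigned to genes, so that 1 read was worth 0.0569 to 0.0896 normalised reads per 1000000 (CPM). Jak1, the targeted kinase, was measured at 125 to 207 CPM in the parental and 104 to 234 CPM in the Cre libraries, with a log2 change of -0.04 ± 0.089 on the log2(CPM + 0.5) scale used throughout (SE; limma with Benjamini-Hochberg adjustment, adjusted p = 0.838). A gene total keeps reads from a transcript that lacks some exons, so this level does not check the labels. The epithelial identity given in the labels was uneven. Summed over 7 ductal or epithelial markers, the level was 444 to 12248 CPM in the parental and 360 to 13103 CPM in the Cre libraries, with line 52419 lowest and line 53369 next in both conditions. Cdh1, the epithelial cadherin, was at 0.372 CPM in parental 52419 and 17.5 CPM in parental 53369, against 272 to 805 CPM in the other 4 parental lines. Sox9, on the same list, did not follow this order. It was at 171 CPM in parental 52419 and 118 CPM in parental 53369, against 55.9 to 242 CPM in the other 4 parental lines. Of 6 fibroblast markers measured none was near 0 in all libraries, and their sum was 9.69 to 2173 CPM in the parental and 7.86 to 1265 CPM in the Cre libraries, highest in line 53369. The 5 leukocyte markers summed to 1.99 to 23.5 and 1.72 to 9.59 CPM, with Adgre1 at 3 reads or fewer throughout. The 4 endothelial markers summed to 0.612 to 6.85 and 0.538 to 5.32 CPM, with Tek at 3 reads or fewer. The 5 acinar or endocrine markers summed to 1.55 to 13.4 and 1.86 to 18.9 CPM, with Gcg and Chga at 3 reads or fewer. After Cre none of the markers was called by limma with Benjamini-Hochberg adjustment. Pdgfra, a fibroblast receptor, was lower in 6 of 6 pairs (log2 change -0.71, adjusted p = 0.0786 by limma) and was called lower by edgeR and DESeq2, while Col3a1 was at -0.45 and Col1a1 at 0.13. Krt19, a ductal keratin, was at 0.49 (limma adjusted p = 0.195) and was called higher by DESeq2, with Epcam at -0.74 and Cdh1 at 0.31. In the other lists the tested markers were Cd68 at -0.33, Kdr at -0.51 and Cela1 at 0.14. The part of these markers in the changes of the 10 genes was not tested.

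None of the tumour suppressors was lost at the transcript level in any line. Trp53, Cdkn2a, Cdkn2b, Smad4, Cdkn1a, Mdm2, Ccng1, Zmat3 and Phlda3 were well above the floor of 3 reads in all 12 libraries, the smallest count being 172 reads, for Cdkn1a. No parental line was 8-fold or more below the median of the 6 parental libraries for any of these genes. For Eda2r, with a parental median of 0.448 CPM, that bound is less than a single read, so the rule cannot judge its loss. Gene totals cannot show point mutations, loss of single exons or loss of the protein. They also cannot separate the p16Ink4a and p19Arf transcripts of Cdkn2a.

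Cdkn2a was the most abundant of the 10 per length of exon. Its parental mean was 548 CPM per kb of exon, followed by Cdkn2b at 201, Trp53 at 55.1, Smad4 at 28.9, Phlda3 at 28.4, Ccng1 at 23.9, Mdm2 at 12.6, Cdkn1a at 9.97, Zmat3 at 3.86 and Eda2r at 0.254 CPM per kb. The INK4 locus was thus read at a higher level than the CDK inhibitor p21 that Cdkn1a encodes, by the same measure.

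**Figure D1:**
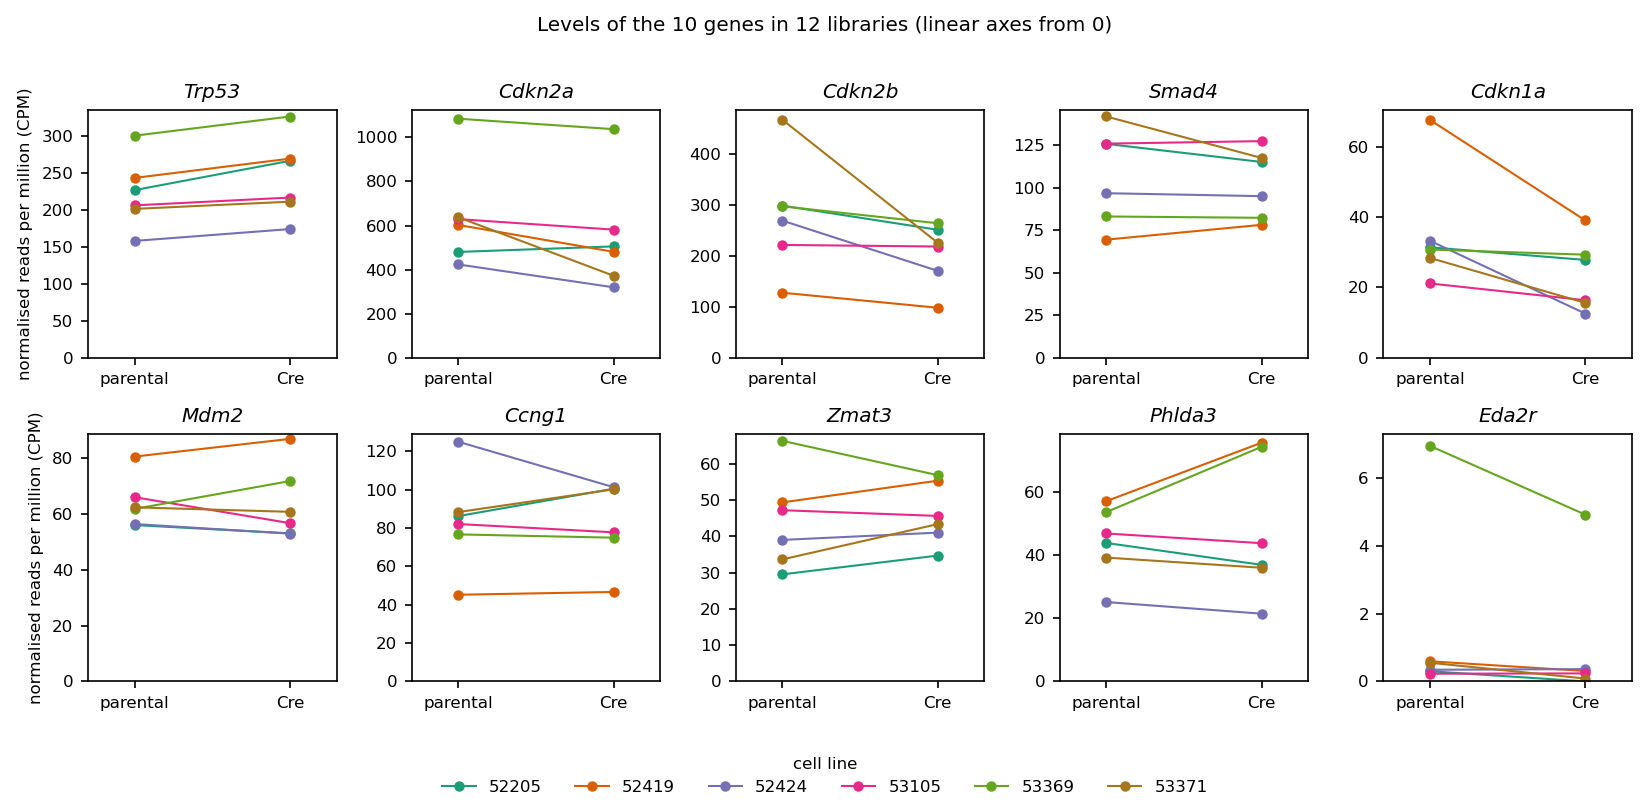
Level of each of the 10 genes in normalised reads per 1000000 (CPM, linear axes from 0) in the parental and the Cre library of the 6 cell lines, with a line joining each pair. No gene except Eda2r approaches 0, line 53369 stands highest for Cdkn2a at 1085 and 1038 CPM, and line 52419 stands highest for Cdkn1a at 67.6 and 39.0 CPM.

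Cdkn2a (chromosome 4, 89274473 to 89294619, GRCm38.p6) was read at 480, 602, 423, 629, 1085 and 637 CPM in the parental cultures of 52205, 52419, 52424, 53105, 53369 and 53371. Line 53369 stood above all others, and line 52424 was lowest. In the Cre cultures of the same lines the values were 505, 480, 319, 581, 1038 and 371 CPM. Mtap, the metabolic gene next to Cdkn2a that is often deleted with it in human tumours, was at 171 to 425 CPM in all 12 libraries. Beyond Mtap, the interferon genes Ifna5 and Ifne were at 3 reads or fewer in all 12 libraries, with no line apart from the rest. Dmrta1 and Tusc1, on the far side of Cdkn2b, were at 0.436 to 7.50 and 1.82 to 7.73 CPM.

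Trp53 (chromosome 11, 69580348 to 69591873) was at 227, 244, 158, 206, 301 and 202 CPM in the parental cultures, in the same order of lines. Several of its neighbours were also read in all libraries: Wrap53, which starts head to head with Trp53, at 15.9 to 26.4 CPM, Fxr2 at 116 to 190 CPM and Mpdu1 at 33.6 to 53.7 CPM. Sox15 was at 3 reads or fewer in all 12 libraries. Smad4, on chromosome 18, was at 126, 69.5, 96.9, 126, 83.2 and 142 CPM. Its neighbours Mex3c and Mbd2 were at 65.1 to 131 and 44.9 to 116 CPM, and Elac1 at 5.22 to 7.62 CPM. Dcc, a netrin receptor gene nearby, was at 3 reads or fewer in every library.

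The lines differed from each other in all 9 of the genes that passed the filter for testing (at least 1 CPM in at least 6 of the 12 libraries), against 71.1% of all 12734 genes tested (limma F test over the line terms, Benjamini-Hochberg adjustment over all genes, adjusted p from 0.000617 to 0.0200). A difference between lines was thus common in the whole table, and the 9 genes are read against that share. The error in this test is the spread between the parental and the Cre library of a line around the common Cre effect. Between the highest and the lowest line, as the mean of the log2 levels of both libraries, the fold was 2.899 for Cdkn2b, 2.886 for Cdkn2a, 2.79 for Phlda3, 2.72 for Cdkn1a, 2.43 for Ccng1, 1.91 for Zmat3, 1.89 for Trp53, 1.75 for Smad4 and 1.53 for Mdm2. Of 45 steps between neighbouring lines in the orders of the 9 genes, 10 were larger than the 95% half-width of a difference between lines. Most neighbours in each order therefore did not differ beyond their spread.

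Line 52419 stood at an end of the order for 6 of the 9 genes. The share of all tested genes with each line at an end is not given here. These positions are therefore not read as particular to the 9 genes. It was highest for Cdkn1a, Mdm2 and Phlda3, which encode p21, the p53 ligase and an inhibitor of AKT signalling, and lowest for Cdkn2b, Smad4 and Ccng1. Its Cdkn2b level of 112 CPM was below the next line, 52424 at 214 CPM, by more than the half-width. Its Ccng1 level of 45.9 CPM was likewise below the next, 53369 at 75.8 CPM. Its Cdkn1a level of 51.4 CPM was above the next, 53369 at 30.0 CPM, and its Mdm2 level of 83.7 CPM was above the next, 53369 at 66.6 CPM. Without line 52419 only 5 of the 9 genes still differed between lines, with Cdkn2b (adjusted p = 0.181), Cdkn1a (0.206), Mdm2 (0.357) and Ccng1 (0.0699) no longer called by the limma F test. Line 52419 was also the one with Cdh1 below 1 CPM in both libraries. Epcam was below 1 CPM in both libraries of 52419 and also of 53369. It was also low in 53105, at 1.99 and 2.14 CPM, where Cdh1 was at 272 and 493 CPM. The part of these markers in the levels of the 9 genes was not tested.

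Line 53369 was highest for Trp53, Cdkn2a and Zmat3. Its Cdkn2a level over both libraries was 1061 CPM against 605 CPM in the next line, 53105, a step beyond the half-width. Its Trp53 level was 314 CPM against 256 CPM in 52419, also beyond it. Without line 53369 the limma F test no longer called Cdkn2a (adjusted p = 0.0864). The fibroblast marker sum was highest in this line, and its part was not tested. Line 52424 was lowest for Trp53 (166 CPM), Cdkn2a (367 CPM) and Phlda3 (23.2 CPM) and highest for Ccng1 (112 CPM). Line 53371 was highest for Cdkn2b (325 CPM) and Smad4 (129 CPM), line 52205 lowest for Mdm2 (54.5 CPM) and Zmat3, and line 53105 lowest for Cdkn1a (18.6 CPM). No line was lowest for all of the p53 targets Cdkn1a, Mdm2, Ccng1, Zmat3 and Phlda3. Cdkn1a and Ccng1, which both hold a p53 site in the stretches shown above, had their extremes in opposite directions in line 52419.

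Eda2r, a p53-induced receptor of the TNF receptor family, was the exception among the 10. It was at 6.96 CPM (91 reads) in the parental and 4.93 CPM (69 reads) in the Cre library of line 53369. In the other 5 lines it was at 0.227 to 0.595 CPM (4 to 8 reads) in the parental and 0 to 0.364 CPM (0 to 5 reads) in the Cre libraries. The 2 libraries at 3 reads or fewer were the Cre libraries of 52205 and 53371. It did not pass the filter of 1 CPM in at least 6 libraries, which the other 9 genes passed, and was left out of the fit across genes. Its Cre library was lower in 4 of 6 pairs, with an exact sign-flip p of 0.125.

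After Cre, none of the 9 tested genes passed the adjusted threshold, against 3 of 12734 genes (0.0236%) called over the whole table by limma with Benjamini-Hochberg adjustment. Those 3 were Osmr, Il13ra1 and Cebpd, all lower after Cre and named after their values were seen. Before adjustment, 3 of the 9 had p under 0.05 and a lower level (Cdkn1a, Cdkn2b and Cdkn2a), against 8.18% of all genes, and 0 of the 9 had p under 0.05 and a higher level, against 6.96%. In either direction that is 3 of 9, against 15.1% of all genes. The level was lower in 6 of 6 pairs for Cdkn1a and Cdkn2b, against 4.56% of all genes, and higher in 6 of 6 pairs for Trp53, against 4.11%. All pairs went 1 way in these 3 of 9 genes, against 8.67% of all genes. The parental and Cre libraries overlapped for each of the 9 genes, and 0.0942% of all genes had groups that did not. In a bulk culture, fewer cells with a transcript and less transcript per cell cannot be told apart.

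**Figure D2:**
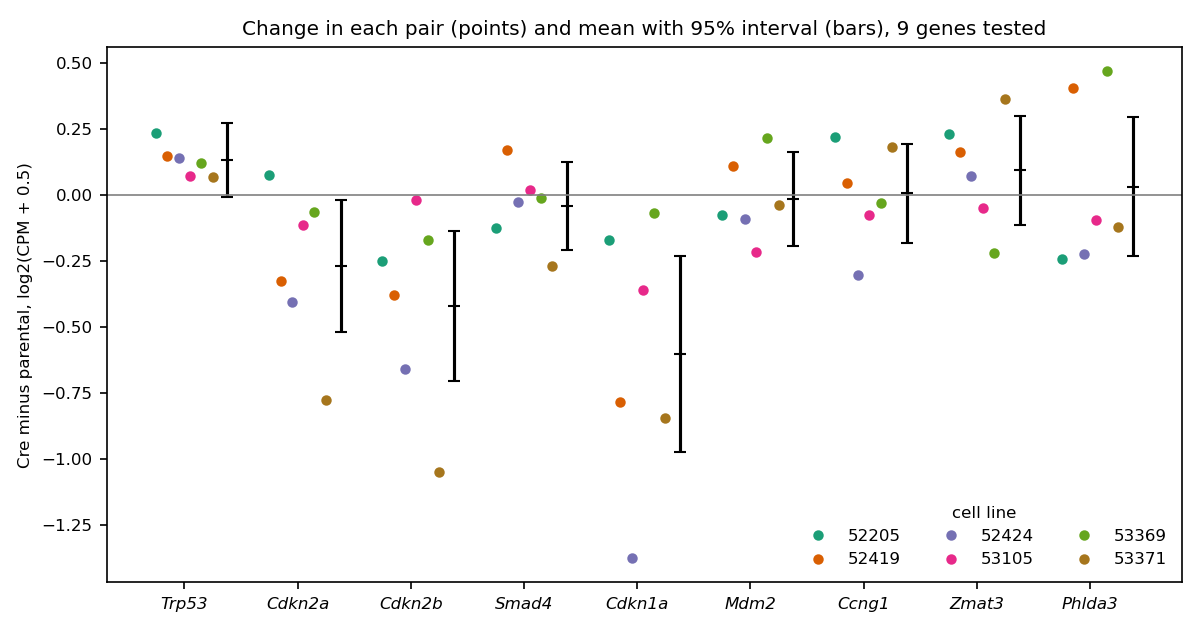
Difference between the Cre and the parental library of each cell line on the log2(CPM + 0.5) scale (points, coloured by line) for the 9 tested genes, with the mean over 6 pairs and its 95% interval from limma (bars). Cdkn1a and Cdkn2b lie below 0 in all 6 pairs and Trp53 lies above 0 in all 6, and no gene passed the adjusted threshold.

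Cdkn1a (chromosome 17, 29090979 to 29100722), which encodes the CDK inhibitor p21 and is the classical p53 target, had the largest estimate of the 9. Its parental values were 31.4, 67.6, 33.2, 21.1, 30.8 and 28.4 CPM in 52205, 52419, 52424, 53105, 53369 and 53371. After Cre they were 27.8, 39.0, 12.5, 16.3, 29.3 and 15.6 CPM. Each Cre library was below its own parental library, by very little in 53369 and by 2.66-fold in 52424, and the groups overlapped. The mean was 35.4 ± 16.3 CPM in the parental and 23.4 ± 10.3 CPM in the Cre libraries (SD, n = 6 each). The log2 change was -0.60 ± 0.165 (SE), a 1.52-fold lower level, with a 95% interval from -0.97 to -0.23 (limma with Benjamini-Hochberg adjustment, adjusted p = 0.209). In the exact two-sided sign-flip permutation test over the 6 pairs p was 0.03125, the smallest value that 6 pairs can give, and 0.104 after Benjamini-Hochberg adjustment over the 10 genes. DESeq2 on reads recovered from the table called Cdkn1a lower (adjusted p = 0.0467), among 270 genes that it called. Over all alternatives the adjusted p ran from 0.0467 to 1.00, the latter without the pairing, and edgeR's quasi-likelihood test did not call it.

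Cdkn2b (chromosome 4, 89306289 to 89311032), encoding p15Ink4b, was at 298, 127, 269, 221, 297 and 467 CPM in the parental libraries. After Cre it was at 251, 97.8, 170, 218, 264 and 226 CPM. All pairs were lower, but line 53105 by only 0.02 on the log2 scale, whereas line 53371 was lower by 2.07-fold. The means were 280 ± 112 and 204 ± 61.4 CPM (SD, n = 6 each). The log2 change was -0.42 ± 0.126 (SE; limma with Benjamini-Hochberg adjustment, adjusted p = 0.242), and the exact sign-flip p was 0.03125, or 0.104 after adjustment over the 10 genes. Cdkn2b lies inside the span of the long non-coding gene Gm12610 in RefSeq, and the library protocol does not mention strand marking, so reads of the pair could not be told apart by strand.

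Cdkn2a, whose values are given above, was lower after Cre in 5 of 6 pairs and higher by 0.07 on the log2 scale in 52205. The difference was greatest in 53371, where the parental level was 1.72-fold above the Cre level. Means were 643 ± 233 and 549 ± 257 CPM (SD, n = 6 each). The log2 change was -0.27 ± 0.111 (SE; limma with Benjamini-Hochberg adjustment, adjusted p = 0.310), and the exact sign-flip p was 0.094. Line 53369, with the most Cdkn2a, was nearly level between its libraries.

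Trp53 itself was slightly higher in every Cre library than in its parental partner. The Cre values were 267, 270, 174, 217, 327 and 211 CPM against the parental 227, 244, 158, 206, 301 and 202 CPM. In 53371 the 95% counting interval of the Cre over parental fold, 0.99 to 1.11, included no change. The size of the difference was small next to the gap between lines, and the groups overlapped almost completely. The log2 change was 0.13 ± 0.062 (SE; limma with Benjamini-Hochberg adjustment, adjusted p = 0.360), with a 95% interval from -0.01 to 0.27. In the exact sign-flip permutation test p was 0.03125, or 0.104 after adjustment over the 10 genes. The range of the log2 change on leaving out each pair in turn was 0.11 to 0.14.

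The other p53 targets of the set had estimates near 0. Mdm2 was at 56.0, 62.1 and 80.6 CPM (lowest, median, highest) in the parental and 52.9, 58.7 and 86.9 CPM in the Cre libraries, a log2 change of -0.02 with a 95% interval from -0.19 to 0.16. Ccng1, which encodes cyclin G1, was at 45.2, 84.1 and 125 CPM and at 46.6, 88.9 and 101 CPM, a log2 change of 0.01 (interval -0.18 to 0.19). Zmat3, an RNA-binding p53 target, was at 29.5, 43.1 and 66.3 CPM and at 34.7, 44.5 and 56.9 CPM, a log2 change of 0.09 (interval -0.11 to 0.30), which was 0.0044 with library weights. These ranges overlapped, and each gene was higher after Cre in some pairs and lower in others. Phlda3 was at 25.1, 45.4 and 57.1 CPM and at 21.5, 40.4 and 75.6 CPM, a log2 change of 0.03 (interval -0.23 to 0.29). Its pairs split by line: the Cre library was higher by 0.40 and 0.47 on the log2 scale in 52419 and 53369 and lower in the other 4. The pairs of Mdm2 split by the same lines, higher by 0.11 in 52419 and 0.21 in 53369 and lower in the other 4. For Mdm2 the 95% counting interval of the Cre over parental fold included no change in 52205, 52419, 52424 and 53371, but not in 53105 or 53369. For Phlda3 it included no change in 52424, 53105 and 53371, but not in 52205, 52419 or 53369. Zmat3 and Ccng1 did not split this way, at 0.16 and 0.05 in 52419 and -0.22 and -0.03 in 53369. Lines 52419 and 53369 had the lowest sums of the ductal markers, though not the lowest Sox9. A difference in response between them and the rest was not tested. Adjusted p was 0.944 for Mdm2, 0.983 for Ccng1, 0.652 for Zmat3 and 0.928 for Phlda3 (limma with Benjamini-Hochberg adjustment). Cdkn1a, with a full p53 site at its upstream start but not in its other window, and Ccng1, with such a site, had estimates of -0.60 and 0.01. The part of the sites in these estimates was not tested.

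Smad4 was at 115, 78.2, 95.1, 128, 82.4 and 118 CPM in the Cre libraries, against 126, 69.5, 96.9, 126, 83.2 and 142 CPM in the parental ones. It was higher in 2 pairs and lower in 4, by -0.27 to 0.17 on the log2 scale. The log2 change was -0.04 with a 95% interval from -0.21 to 0.13 (limma with Benjamini-Hochberg adjustment, adjusted p = 0.814).

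Among 33 further p53 targets in the table, 31 were tested and none was called after Cre by limma, edgeR or DESeq2. Estimates were above 0 for 13 and below 0 for 18, with a median log2 change of -0.06 against -0.00024 for all genes, 49.9% of which were above 0. Before adjustment 2 were higher and 6 lower at p under 0.05, beside 6.96% and 8.18% of all genes. The 3 with the smallest p were Plk3, a stress kinase, with a log2 change of -0.49, Ddb2, a sensor of UV damage, with -0.51, and Bax, the death effector at the mitochondrion, with 0.22 and a higher level in 6 of 6 pairs. Bax and Plk3 thus lay on opposite sides of 0. The mean change over the 31 targets was -0.35 in line 52424 and -0.17 to 0.07 in the other 5 lines, and without 52424 the median was 0.02. Of the 29 genes with a full p53 site in a promoter window, 13 were in the table and 8 were tested. Of those 8, 5 had estimates above 0 and 3 below, and 0 were called by limma with Benjamini-Hochberg adjustment. Unadjusted limma p was under 0.05 for 3 of the 8, against 15.1% of all genes in either direction. These were Cdkn1a at -0.60, Mthfd1 at 0.44 and Gtse1 at 0.98. The part of the site in these changes was not tested.

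Regulators of p53 were split evenly about 0. Of 19 tested, 9 had estimates above 0 and 10 below, with a median of -0.01. Unadjusted p was under 0.05 for 0 of them, against 15.1% of all genes in either direction. The 3 with the smallest p were Chek1, the replication checkpoint kinase (0.37), Bmi1, the Polycomb repressor of Cdkn2a (0.16), and Trp53bp1, a DNA break adaptor (-0.10). Trp63, a relative of Trp53, averaged 0.0883 CPM in the parental and 0.142 CPM in the Cre libraries and was not tested, and Trp73 was not analysed here.

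In the pathway below p16 and p15, with the other CDK inhibitors, the cyclins, their kinases and the retinoblastoma family, 14 of 18 genes had estimates above 0 and 4 below. Among all genes tested 49.9% were above 0. The median log2 change was 0.16, and 0.06 without line 53371. None was called, and 1 had unadjusted p under 0.05, the S-phase cyclin Ccne2 at 0.74, while 6.96% of all genes were higher at that level. Ccnd2, a D-type cyclin, was at 0.27 and E2f2, a transcription factor held by the retinoblastoma protein, at 0.44.

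Around Smad4, the 7 other SMAD genes had 3 estimates above 0 and 4 below, with a median of -0.07, which was 0.0055 without line 52205, 0.0049 without line 53371 and 0.06 with library weights (4 above, 3 below). The receptor-activated Smad5 (-0.20) and Smad3 (-0.25) had unadjusted p under 0.05, and Smad9 was at 0.21. Of all genes 8.18% were lower at that level. Of 13 TGF-β and BMP response genes, 5 were above 0 and 8 below, with a median of -0.15. Those with the smallest p were Bambi, a decoy receptor (-0.66, lower in 6 of 6 pairs), Tgfbi, a matrix protein induced by TGF-β (-0.79), and Tgif1, a SMAD corepressor (-0.34). None of these SMAD genes or response genes was called by limma or edgeR, and DESeq2 called Tgfbi lower. The median of the response genes ran from -0.25 without line 53369 to -0.04 without 52205, was -0.05 without 52424, and was -0.01 with library weights. Without line 52419 the split was 1 above and 12 below, and without 53369 it was 3 and 10. Of the 19 tested genes on a list of other suppressors mutated in PDAC, 10 were above 0 and 9 below, with a median of 0.0041. Unadjusted p was under 0.05 for 0 of the 19, against 15.1% of all genes in either direction. Without line 52424 the split was 5 above and 14 below, with a median of -0.04, and with edgeR, DESeq2, library weights or the deposited log2 table the median was from -0.0069 to -0.00040. Kdm6a, a histone demethylase (-0.15), Rbm10, a splicing factor (0.14), and Smarca4, a chromatin remodeller (0.12), had the smallest p.

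**Figure D3:**
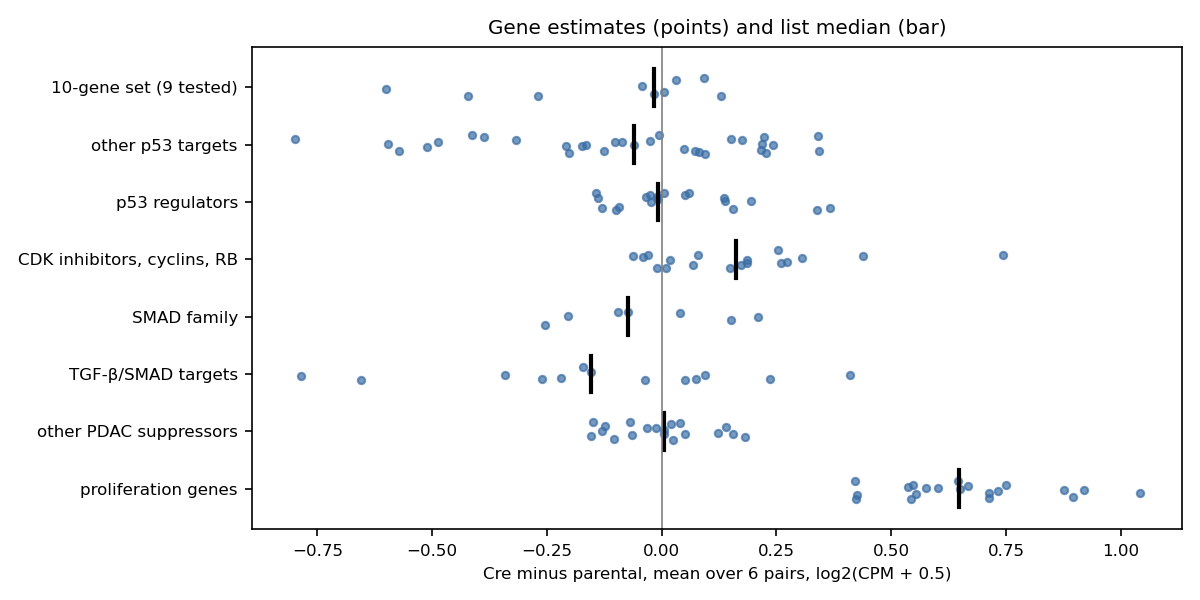
Estimated Cre minus parental difference, mean over 6 pairs on the log2(CPM + 0.5) scale, for each tested gene (points) of the set and of 7 related lists, with the list median (bar). The p53 target median is -0.06 with points on both sides of 0, and all 20 proliferation genes lie above 0 with a median of 0.65.

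The genes of dividing cells are set beside the CDK inhibitors pair by pair. All 20 genes of a proliferation list had estimates above 0, with a median of 0.65, and 13 had unadjusted p under 0.05 (6.96% of all genes were higher at that level), but 0 were called by limma, edgeR or DESeq2, and the median was 0.30 without line 53371. The smallest p belonged to the helicase subunits Mcm2 (0.60) and Mcm5 (0.75) and to the nucleotide enzyme gene Rrm2 (1.04). The mean log2 change of the 20 genes was 0.40 in 52205, 0.36 in 52419, 0.75 in 52424, -0.07 in 53105, 0.19 in 53369 and 2.35 in 53371. In 53371 their summed level was 621 CPM in the parental library, below the other 5 parental libraries at 1814 to 3862 CPM, and 2915 CPM after Cre. In the same order of lines the change of Cdkn2b was -0.25, -0.38, -0.66, -0.02, -0.17 and -1.05. The lines with the greatest and the smallest change in Cdkn2b, 53371 and 53105, were thus also those with the greatest and the smallest change in the proliferation genes. The change of Cdkn1a was -0.17, -0.79, -1.37, -0.36, -0.07 and -0.85, with its extremes in 52424 and 53369. That of Cdkn2a was 0.07, -0.33, -0.41, -0.11, -0.06 and -0.78. The changes come from the same libraries, and the part of growth state in the levels of these inhibitors was not tested. Without line 53371 the log2 change was -0.30 for Cdkn2b and -0.17 for Cdkn2a.

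**Figure D4:**
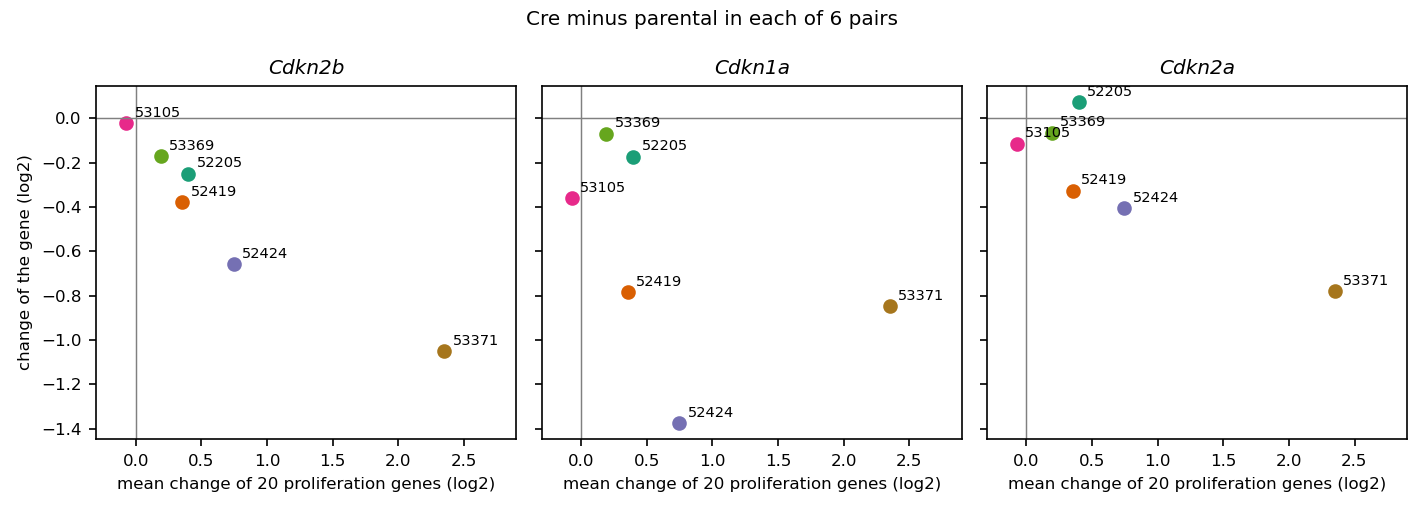
Change of Cdkn2b, Cdkn1a and Cdkn2a (vertical axes, log2) against the mean change of 20 proliferation genes (horizontal axes, log2) in the Cre minus parental comparison of each of the 6 lines. Line 53371 lies far right at 2.35 and has the lowest point for Cdkn2b and Cdkn2a, and line 52424 has the lowest point for Cdkn1a at -1.37.

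Cdkn1a and Cdkn2b were the members with over 4-fold between their highest and lowest library, apart from Eda2r, whose lowest library was at 0. Of all tested genes, those whose pattern over the 12 libraries lay nearest to Cdkn2b were Fbxl2, Sfi1 and Serf1, with mean absolute log2 differences of 0.107, 0.140 and 0.151 after each gene was centred on its own mean. Nearest to Cdkn1a were Arid5a, Wdr78 and Arl14ep, at 0.239, 0.241 and 0.244. The nearest patterns to Cdkn1a were thus less close than those to Cdkn2b.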

How the data were processed

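RNA was extracted from flash-frozen cultures, poly(A) RNA was selected and cDNA libraries were sequenced, per the labels' protocols. FastQC 0.11.9, featureCounts, edgeR and the builds GRCm38 and mm10 are named in the submitters' processing notes without a role. The sources used here name no aligner. The authors deposited a linear table of normalised values, a signal per gene in counts per 1000000 of a scaled library size (CPM), and a log2 table of 10903 of the genes. Dividing each deposited value by the worth of a single read in its library gave whole numbers for 100% of values (tolerance 0.01), so reads were recovered, 11477867 to 18044142 per library. Gene IDs were matched to RefSeq symbols for 19448 of 20432 rows and to GENCODE for 10 more.

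Values were tested as log2(CPM + 0.5) with limma-trend 3.58.1 (R 4.3.3) over all 12 libraries, with cell line as block, on 12734 genes with at least 1 CPM in at least 6 libraries. Benjamini-Hochberg adjustment ran over all of them, and genes under 0.05 were called. The fit was tested on simulated data. The same line number marks the same cell line, and after removal of group means the 2 libraries of a line correlated at 0.73 to 0.95, with 12 of 12 libraries closest to their own line. A single gene was also tested by an exact two-sided sign-flip permutation over 6 pairs. Alternatives were other pseudocounts, filters and scalings, library weights, no block, each line left out, edgeR 4.0.16 (5 genes called) and DESeq2 1.42.0 (270 genes called) on the recovered reads, and, chosen after seeing the data, the deposited log2 table. A further p53 site, half-site and motif scan used letters only.

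The genes, the related lists and the tests were chosen with earlier results of these data known. Named genes are the 10 of the set, up to 3 tested genes with the smallest p in each list, the neighbours of Cdkn2a, Trp53 and Smad4, and the 3 nearest patterns for members with over 4-fold between libraries. The targeted gene Jak1, the p53 relatives Trp63 and Trp73, the overlapping gene Gm12610 and markers at 3 reads or fewer throughout are also named, and any other is said to be picked after its values were seen.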

Additional observations from a re-analysis of the deposited data

Results flagged for a closer look

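In 30 groups of 6 libraries (the levels of the 10 genes in the parental and the Cre libraries, and their 6 pair changes), 5 held a value set apart from the rest, where the gap to the nearest value exceeded Dixon's 95% limit for 6 values (0.625 of the range). Chance gives about 1 in 20 such groups. Cdkn2a in line 53369 was set apart in the parental library at 1085 CPM and in the Cre library at 1038 CPM. The Cdkn1a level of the parental library of line 52419, 67.6 CPM, was set apart from 21.1 to 33.2 CPM in the other 5. Eda2r in line 53369 was set apart at 6.96 CPM in the parental and 4.93 CPM in the Cre library. For Cdkn2a and Eda2r the same line stood out in both of its libraries, whereas the Cre library of line 52419 was not set apart for Cdkn1a.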

How the results depend on the processing

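The number of genes called after Cre, 3 by limma with the line as block, was 0 with no filter on low values, 5 with edgeR, 270 with DESeq2 (208 lower, 62 higher), 34 with library weights, and 0 to 5 when each line was left out. With no replicate block, that is without the pairing by line, 0 genes and 0 of the 9 members were called. Members called were 0 in all alternatives except DESeq2, which called 1, Cdkn1a. Members that differed between lines numbered 9 in the alternatives that kept all lines, except for 10 with no filter, which adds Eda2r, and 5 to 9 when each line was left out. Over the whole table, 6499 to 9379 of 12734 genes differed between lines when each line was left out. DESeq2 was not used for differences between lines. Changes near 0 turned sign: Smad4 to 0.0039 without line 53371, Mdm2 to 0.057 with library weights and -0.063 to 0.024 over the lines left out, Ccng1 to -0.0062 with library weights, -0.0054 in the deposited log2 table and -0.037 to 0.067 over the lines left out, and Phlda3 to -0.057 to 0.085 over the lines left out. Library weights gave 0.20 for Phlda3 (0.03 otherwise) and 0.0044 for Zmat3 (0.09 otherwise), and leaving out lines gave 0.039 to 0.16 for Zmat3. The cause was not tested. With each line left out the log2 change ran from -0.71 to -0.45 for Cdkn1a, -0.50 to -0.30 for Cdkn2b, -0.34 to -0.17 for Cdkn2a and -0.084 to 0.0039 for Smad4. The median of the p53 targets ran from -0.10 to 0.021, and was 0.0070 with library weights. The median log2 change of all genes was -0.00024, and -0.0017 and -0.0032 under the other scalings. With 1 library per line and condition, no change within a single line can be tested, and Eda2r rests on 0 to 91 reads per library.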
